A study of Rattus norvegicus with 10 samples.

Results

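Transcripts of cytotoxic natural killer (NK) cells and T cells were followed, library by library, in RNA-seq of rat splenic M2 macrophages. The 10 genes listed were *Gzmb*, *Gzma*, *Prf1*, *Nkg7*, *Klrd1*, *Il2rb*, *Cd3e*, *Cd3g*, *Zap70* and *Lck*. Of these, 9 were analysed among 9003 genes, and *Cd3g* was not analysed here. The list was drawn up from the difference between the EV− and EV+ libraries of these same data. The values of that comparison are therefore given as a description, with no test.

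The cells came from the spleens of WKY /Ncrj rats. They were enriched with an antibody to CD11b/c and then sorted by flow cytometry as M2 macrophages. Control rats (n = 2) were in the physiological state. All other rats had glomerulonephritis, which was induced with TF78, a mouse monoclonal antibody to the glomerular basement membrane. GN libraries (n = 2) came from nephritic rats without cell treatment. EV+ (n = 3) and EV− (n = 3) libraries came from nephritic rats given mesenchymal stem cells from human adipose tissue (ASCs). The membranes of the ASCs had been labelled with the dye DiD. EV+ cells carried the dye and EV− cells did not. The authors read most of the dye on leukocytes as membrane of transferred extracellular vesicles (EVs). In a small number of leukocytes the dye lay mainly in the cytoplasm, which they read as uptake of ASCs by phagocytosis. They also propose that EVs may have touched EV− cells for a short time. The methods give the sex (female) and an age range in weeks for rats of the nephritis model, and speak of biological replicates. The labels do not say whether a library is 1 rat. Between 19270515 and 26617093 reads per library fell on the 9003 genes, so 3 reads were worth 0.113 to 0.153 CPM, the normalised read count scaled to library size.

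NK cells and cytotoxic T cells kill target cells by releasing granules. Perforin opens the target membrane and granzymes, which are serine proteases, enter through it and start cell death. T cells recognise their targets through the T cell receptor with its CD3 chains, and the kinases LCK and ZAP-70 pass the signal on, whereas NK cells use families of activating and inhibitory receptors such as the lectin-like KLR proteins. Macrophages are not a usual source of granzymes, perforin or CD3.

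Macrophage markers were high in sum in all libraries, but not each of them was high. The 14 macrophage markers summed to 25215 to 30915 CPM in the control and GN libraries and 29132 to 31301 CPM in the EV+ and EV− libraries, led by *Lyz2*, *Csf1r* and *Cd68*. Most of the sum was *Lyz2*, at 15325 to 20176 CPM. *C1qa*, *C1qb*, *C1qc* and *Spic* of the same list, named after their values were seen, were low, with at most 11.2 CPM each. *Cd163* and *Mrc1*, both used as M2 markers and looked up after their values were seen, were at or near 0 in every library, with at most 1.81 CPM each. The label M2 was set by flow cytometry, and *Cd163* and *Mrc1* did not match it. The authors report that their sorted M2 cells had more IL-10 and less IL-6 and CCR2 than sorted M1 cells. That evidence was not examined here.

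The cytotoxic transcripts were low in 7 of the 10 libraries and high in the EV− libraries. Summed over the 9 genes, they reached 19.3 and 25.8 CPM in the control libraries, 16.5 and 27.0 CPM in GN and 37.3, 19.4 and 18.6 CPM in EV+ replicates 1, 2 and 3. In EV− replicates 1, 2 and 3 the sums were 653, 94.5 and 49.5 CPM. As a share of all reads, the 9 genes took 0.0658%, 0.00963% and 0.00498% in the EV− libraries and between 0.00166% and 0.00368% elsewhere. Most of the height of the EV− group thus lay in 1 library, replicate 1. In bulk RNA, a greater number of cells with these transcripts and more RNA per cell cannot be told apart.

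The promoters of the 4 granule effector genes that follow are shown because these genes were high together in the same libraries. Each is the run of 250 bases before the annotated start site in RefSeq, build GRCr8, written 5′ to 3′ on the gene's own strand. Capitals mark matches, on either strand, to 2 motifs. The RUNX motif is spelled TGTGGT, and on the opposite strand it reads ACCACA. The ETS motif is spelled AGGAAG, and on the opposite strand it reads CTTCCT. RUNX and ETS proteins are transcription factor families active in lymphocytes. The windows lie at chr15:34462470-34462719 (minus strand) for *Gzmb*, chr2:46485697-46485946 (minus strand) for *Gzma*, chr20:29788790-29789039 (plus strand) for *Prf1* and chr1:102981247-102981496 (plus strand) for *Nkg7*.
Gzmb: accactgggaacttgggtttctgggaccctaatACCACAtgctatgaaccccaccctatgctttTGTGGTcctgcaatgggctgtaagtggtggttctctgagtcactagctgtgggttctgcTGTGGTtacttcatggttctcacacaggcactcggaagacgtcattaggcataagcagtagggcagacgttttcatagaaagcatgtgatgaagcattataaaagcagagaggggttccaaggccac
Gzma: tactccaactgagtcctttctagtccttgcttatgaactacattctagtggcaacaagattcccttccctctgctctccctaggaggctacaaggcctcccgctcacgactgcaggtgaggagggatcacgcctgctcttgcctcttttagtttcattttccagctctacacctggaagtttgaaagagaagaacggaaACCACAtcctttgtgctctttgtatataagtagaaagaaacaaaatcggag
Prf1: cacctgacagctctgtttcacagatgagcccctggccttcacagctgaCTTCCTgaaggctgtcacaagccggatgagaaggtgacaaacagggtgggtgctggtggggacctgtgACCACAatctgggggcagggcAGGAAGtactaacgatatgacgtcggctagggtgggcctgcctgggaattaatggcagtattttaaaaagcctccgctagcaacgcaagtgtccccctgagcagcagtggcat
Nkg7: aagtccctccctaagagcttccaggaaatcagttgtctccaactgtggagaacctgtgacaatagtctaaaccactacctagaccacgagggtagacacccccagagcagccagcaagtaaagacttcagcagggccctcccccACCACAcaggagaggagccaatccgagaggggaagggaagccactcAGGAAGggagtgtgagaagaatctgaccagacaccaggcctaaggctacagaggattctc

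All 4 held at least 1 RUNX match, and *Gzmb* held 3. Searched over the whole RefSeq windows, which run from 250 bases before to 50 bases after the start, the RUNX motif was present in 5 of 8 windows of 7 matched genes, against 17.3% of all 33469 windows. The fifth was in *Lck*, which has more than 1 window. The ETS motif was in 7 of 8 windows, against 34.5% of all. A T-box motif, GGTGTGA, was in 0 of 8, against 3.83% of all. The matches did not overlap one another. They describe letters in a window and no binding was measured. *Klrd1* and *Il2rb* had no entry in the promoter table used.

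*Gzmb* encodes granzyme B, the granule protease that cleaves caspases in the target cell. Its level was 1.39 and 1.57 CPM in the control libraries, 0.631 and 1.47 CPM in GN and 1.76, 1.18 and 1.61 CPM in EV+. It was 50.7, 8.10 and 2.96 CPM in EV− replicates 1, 2 and 3, from 1044, 159 and 76 reads. Every EV− library was above every other library. The EV− mean was 20.6 ± 26.2 CPM (SD, n = 3) and the EV+ mean 1.51 ± 0.30 CPM (SD, n = 3), a ratio of 13.6. Without EV− replicate 1 the ratio was 3.65. *Gzmb* belongs to a family of near-identical rat genes, so how reads were divided within that family is uncertain.

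*Gzma* encodes granzyme A, the tryptase of the same granules. It measured 0.963 and 1.61 CPM in the control libraries, 1.06 and 2.11 CPM in GN, 2.34, 1.26 and 1.34 CPM in EV+, and 49.95, 5.61 and 4.12 CPM in EV−. Again the lowest EV− library was above the highest library of the other groups. The ratio of the EV− to the EV+ mean was 12.1, and 2.95 without EV− replicate 1.

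*Prf1* encodes perforin, the pore-forming protein that lets granzymes into the target cell. It had 157 to 472 reads in each library outside the EV− group and 6884, 1008 and 630 reads in EV−. That was 8.86 and 14.1 CPM in the control libraries, 9.55 and 15.2 CPM in GN, 18.4, 10.5 and 7.0 CPM in EV+, and 335, 51.4 and 24.5 CPM in EV−. The EV− libraries did not overlap any other group, and perforin reads were present in all 10 libraries. The EV− mean of 137 ± 172 CPM (SD, n = 3) was 11.4 times the EV+ mean of 12.0 ± 5.86 CPM (SD, n = 3), and 3.17 times without EV− replicate 1.

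*Nkg7* encodes a membrane protein of cytotoxic granules. Its levels were 2.5 and 2.89 CPM in the control libraries, 2.60 and 2.94 CPM in GN, 5.08, 1.81 and 2.32 CPM in EV+, and 75.2, 10.1 and 5.68 CPM in EV−. The lowest EV− library stood only slightly above EV+ replicate 1. The ratio of means was 9.89, and 2.58 without EV− replicate 1.

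**Figure D1:**
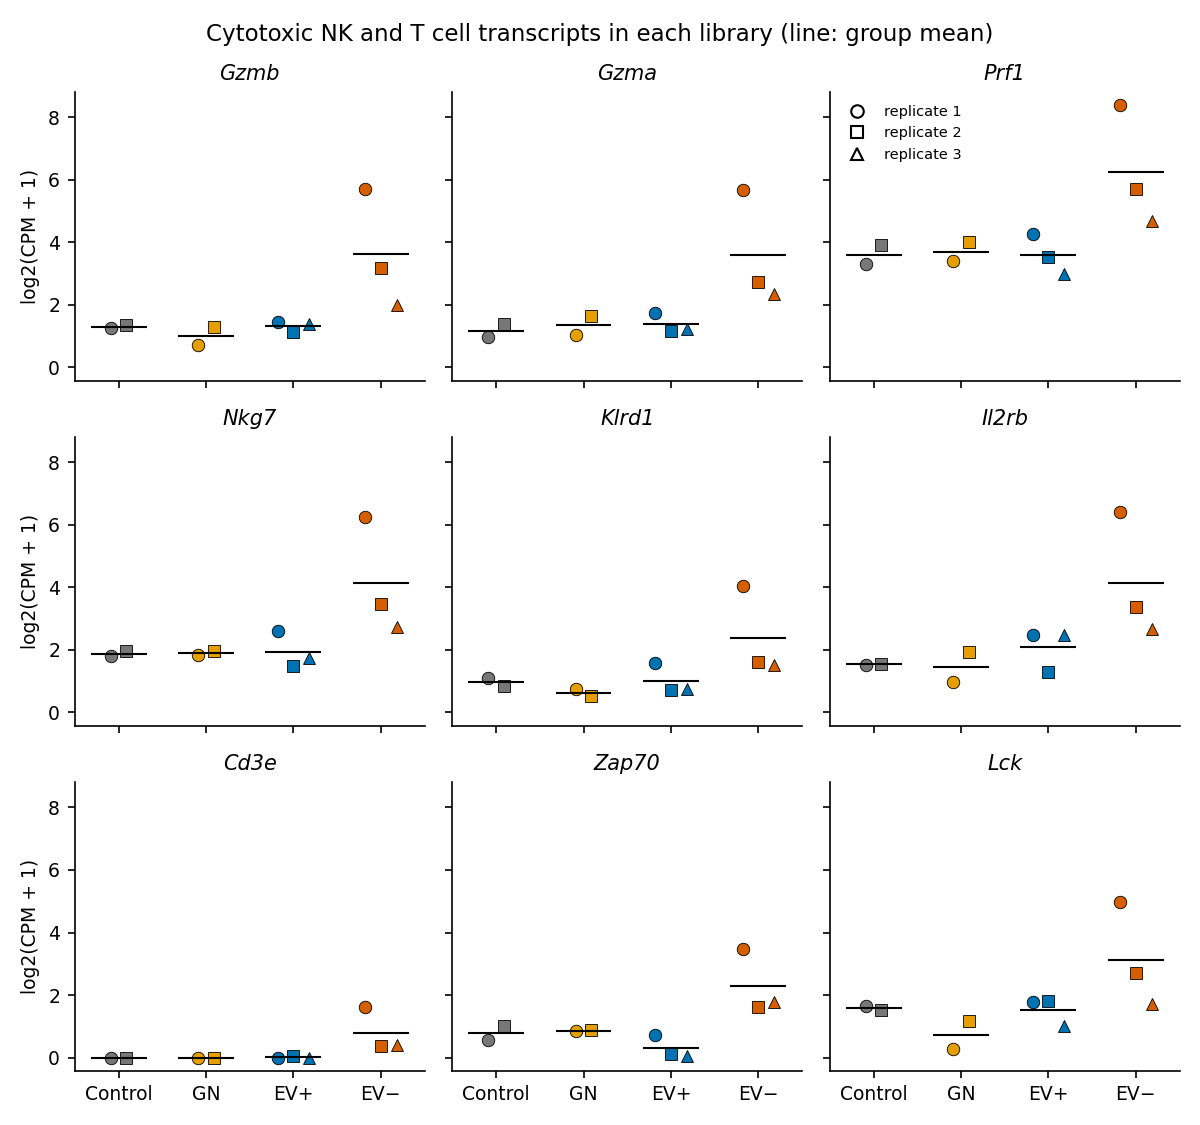
Level of each of the 9 genes in each of the 10 libraries, as log2(CPM + 1) on the vertical axis, with the groups on the horizontal axis, 1 point per library, the replicate number as the point's shape and a line at the group mean. EV− replicate 1 is the highest point in all 9 panels, and all 3 EV− points lie above the other 7 in all panels except those of *Klrd1* and *Lck*.

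Among the receptors, *Klrd1* encodes CD94, which pairs with NKG2 chains on NK cells. It measured 1.16 and 0.784 CPM in the control libraries, 0.671 and 0.452 CPM in GN and 1.99, 0.631 and 0.669 CPM in EV+. The EV− libraries had 15.7, 2.04 and 1.87 CPM. EV− replicate 3 was below EV+ replicate 1, so the EV groups overlapped. The ratio of means was 5.95, and 1.78 without EV− replicate 1. The KLR genes form a large family of similar sequences, and their counts share that uncertainty.

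*Il2rb* encodes the beta chain of the receptors for interleukin-2 and interleukin-15. It measured 1.89 and 1.94 CPM in the control libraries and 0.986 and 2.79 CPM in GN. In EV+ it was 4.57, 1.43 and 4.59 CPM, and in EV− 84.1, 9.38 and 5.33 CPM. The groups did not overlap, but EV− replicate 3 was close to EV+ replicates 1 and 3. The ratio of means was 9.33, and 2.08 without EV− replicate 1.

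*Cd3e* encodes the epsilon chain of CD3, which is part of every T cell receptor. No read was found in the 2 control and 2 GN libraries, where 3 reads would have been 0.113 to 0.124 CPM. EV+ held 0, 1 and 0 reads. EV− held 43, 6 and 8 reads, or 2.09, 0.306 and 0.311 CPM. EV− replicate 1 held most of these reads, and no fold is given against the single read of EV+. *Cd3e* was the only 1 of the 9 genes that did not reach 1 CPM outside the EV− group. The authors' filter, a maximum of at least 1 CPM over all libraries, kept it through EV− replicate 1, so it had to differ to be in the table.

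*Zap70* encodes the kinase that binds phosphorylated CD3 and zeta chains in T cells and NK cells. It measured 0.462 and 1.03 CPM in the control libraries, 0.789 and 0.829 CPM in GN and 0.664, 0.0842 and 0.0446 CPM in EV+, the last 2 values from 2 reads and 1 read. The EV− libraries had 10.2, 2.09 and 2.41 CPM. Here EV+ replicates 2 and 3 were below control and GN as well as below EV−. The ratio of means was 18.5, and 8.52 without EV− replicate 1.

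*Lck* encodes the kinase that starts signalling from the T cell receptor. It measured 2.12 and 1.86 CPM in the control libraries, 0.197 and 1.24 CPM in GN and 2.46, 2.48 and 1.03 CPM in EV+. The EV− libraries had 30.2, 5.50 and 2.30 CPM. EV− replicate 3 was below EV+ replicates 1 and 2, so *Lck*, like *Klrd1*, overlapped between the EV groups. The ratio of means was 6.37, and 1.96 without EV− replicate 1.

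Across the genes, all 3 EV− libraries were above all 3 EV+ libraries for 7 of 9, against 4.65% of all 9003 genes. Without EV− replicate 1 the count was also 7 of 9, against 8.85% of all genes. For the same 7 genes the 3 EV− libraries were above all 7 others (1.08% of all genes). EV− replicate 1 was the highest library for 9 of 9 (9.71% of all genes). The ratio of means was at least 2 for 9 of 9 (2.60% of all genes), and for 7 of 9 without EV− replicate 1 (1.98% of all genes). Nothing is read from these shares, since the genes were chosen on this comparison.

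The SD of the EV− group exceeded its mean for 8 of the 9 genes, *Zap70* being the exception. EV− replicate 1 was 4.86 to 8.97 times EV− replicate 2 (median 6.83). EV− replicate 2 was 0.866 to 2.74 times EV− replicate 3 (median 1.76), and was the higher of that pair for 7 of 9. Within EV+, replicate 1 was the highest for 6 of 9. On the log2(CPM + 1) scale, which understates the change of low genes, the mean difference between EV− and EV+ ran from 0.78 for *Cd3e* to 2.66 for *Prf1*. Its median over the 9 genes was 2.07, against 0.0077 over all genes. Without EV− replicate 1 the median was 1.16.

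Libraries of EV+ and EV− that bear equal numbers deviated together from their group means only weakly (r = 0.122 to 0.295). No label says that equal numbers mark a pair. The differences were also taken number by number, as a description, and such libraries are called pairs below. EV− minus EV+ was positive for 9 of 9 genes in each of the 3 pairs. Its median was 3.65 for replicate 1, 1.55 for replicate 2 and 0.78 for replicate 3, in log2(CPM + 1). *Gzmb* had differences of 4.23, 2.06 and 0.60 in these pairs, and *Zap70* had 2.74, 1.51 and 1.71. The smallest difference was that of *Il2rb* in replicate 3, at 0.18.

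**Figure D2:**
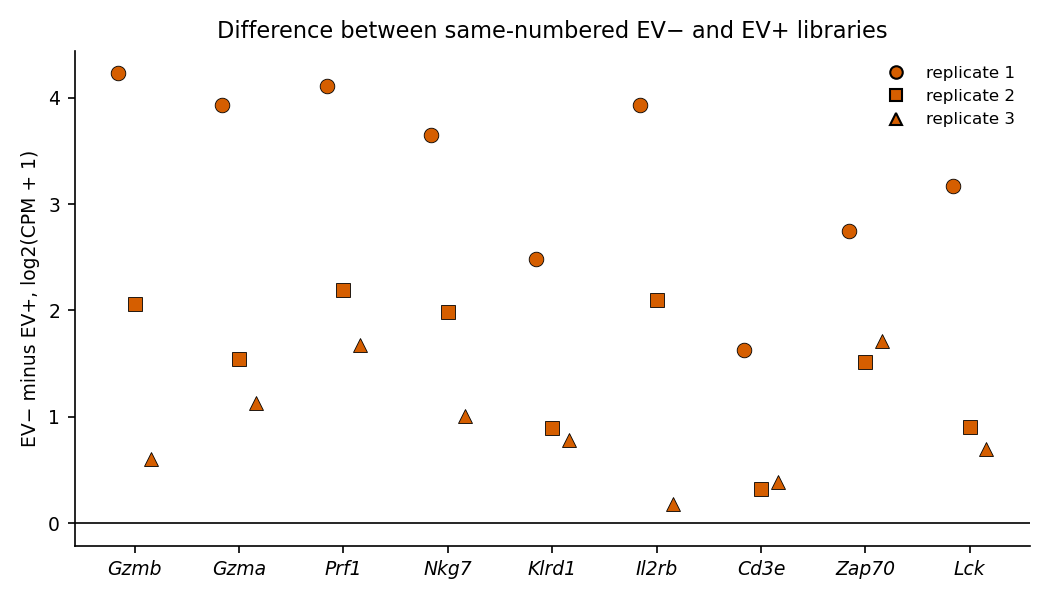
Difference between the EV− and EV+ libraries of the same replicate number for each of the 9 genes, in log2(CPM + 1) on the vertical axis, with 1 point per pair and its shape giving the number. All points are above 0, and the pair numbered 1 is the highest for every gene, with a median of 3.65 against 1.55 and 0.78 for the pairs numbered 2 and 3.

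The shares of the 9 transcripts in their sum overlapped between EV− and the other libraries for 8 of them, although the sums themselves did not overlap. CPM values are not divided by gene length, so the shares are compared between libraries for 1 gene at a time. *Prf1* made up 49.5% to 54.3% of the summed CPM in the EV− libraries and 37.6% to 57.9% in the other 7. *Gzmb* made up 5.97% to 8.57% in EV− and 3.83% to 8.63% elsewhere. *Gzma* was at 5.93% to 8.33% and 4.98% to 7.81%, and *Nkg7* at 10.7% to 11.5% and 9.33% to 15.8%. The ranges overlapped for all of these effectors.

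The receptors and kinases varied more outside the EV− group. *Il2rb* took 9.92% to 12.9% in EV− and 5.98% to 24.7% elsewhere, where the top value was that of EV+ replicate 3. *Lck* took 4.63% to 5.82% in EV− and 1.20% to 12.8% elsewhere. *Zap70* had 1.56% to 4.87% against 0.240% to 4.78%, and *Klrd1* 2.16% to 3.77% against 1.67% to 5.98%. Only *Cd3e* had no overlap, with 0.32% to 0.629% in EV− and at most 0.217% in the others, from 1 read.

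**Figure D3:**
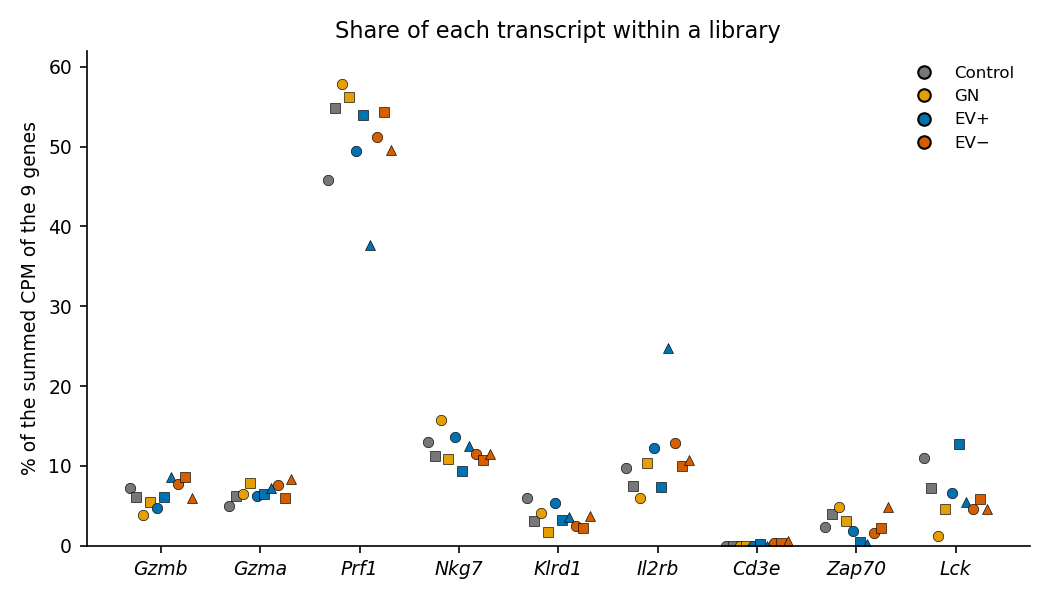
Share of each gene in the summed CPM of the 9 genes, in percent on the vertical axis, with 1 point per library coloured by group and shaped by replicate number. For *Prf1* the 3 EV− libraries lie between 49.5% and 54.3%, inside the 37.6% to 57.9% of the other libraries.

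The comparison of GN with control addresses nephritis without ASCs, and it was not used to choose the genes. None of the 9 passed limma's test at a Benjamini-Hochberg FDR under 0.1 over all 9003 genes (0 of 9, against 1.75% of all genes called). At an unadjusted p under 0.05 the count was also 0 (10.4% of all genes). It was 0 again at FDR under 0.1 with edgeR's quasi-likelihood test (1.63% of all genes), edgeR's likelihood-ratio test (3.24%) and DESeq2 (3.27%). The GN mean was higher for 4 genes and lower for 4, and *Cd3e* had no reads in either group. *Lck* had the largest difference, at −0.86 in log2(CPM + 1) with an SE of 0.714 (limma adjusted p = 0.755). For the others the difference ran from −0.33 for *Klrd1* to 0.16 for *Gzma*, with adjusted p of 0.913 or more. *Lck* and *Klrd1* were lower in both GN than in both control libraries, an ordering found in 22.0% of all genes.

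The EV groups were set beside GN as a description, since both EV groups served in the choice of the genes. Both comparisons share the GN libraries. EV− means were 6.04 (*Zap70*) to 19.6 (*Gzmb*) times the GN means over the 8 genes with reads in GN. EV+ means were 0.327 (*Zap70*) to 2.76 (*Lck*) times the GN means over the same 8 genes. In log2(CPM + 1), the median difference over the 9 genes was 2.24 for EV− minus GN and 0.04 for EV+ minus GN. *Prf1* was at 12.0 ± 5.86 CPM in EV+ (SD, n = 3), 12.4 ± 3.98 CPM in GN (SD, n = 2) and 11.5 ± 3.74 CPM in control (SD, n = 2), differences within the spread. *Il2rb* was at 3.53 ± 1.82 CPM in EV+ (SD, n = 3) and 1.89 ± 1.27 CPM in GN (SD, n = 2), and these libraries overlapped.

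Other genes of the same cells were taken from 4 lists. They cover cytotoxic effectors (8 genes analysed), NK receptors and adaptors (18), T cell receptor signalling (17) and transcription factors of cytotoxic lymphocytes (7). These genes were read in the same libraries that served to choose the genes followed. Their results between EV− and EV+ are therefore not independent of that choice. Of these 50 genes, 0 passed limma's test between EV− and EV+ at FDR under 0.1, where 0.0222% of all genes passed, both of them lower in EV−. The edgeR quasi-likelihood test also called 0 of 50 (0.0222% of all genes). At an unadjusted p under 0.05 there were 15 of the 50 (4.57% of all genes), a count that includes genes kept by the filter on low values through EV− libraries alone. The likelihood-ratio test called 6, all higher in EV− as were 0.433% of all genes (*Ccl5*, *Gzmk*, *Gzmm*, *Klrc1*, *Prkcq* and *Tbx21*, named after their values were seen). DESeq2 called 6 as well, with *Ncr1* in place of *Klrc1*, against 0.211% of all genes called higher. Of these genes, *Klrc1*, *Ncr1* and *Prkcq* reached 1 CPM only in EV− libraries.

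Of the 50 genes, 18 reached 1 CPM only in EV− libraries, so they had to be high there to be in the table. The other 32 are set against the 8841 genes of the whole table that likewise reached 1 CPM elsewhere. These counts too are a description, since they are not independent of the choice of the genes followed. Of the 32, 8 had an unadjusted limma p under 0.05 (4.28% of the 8841), and 7 of these were higher in EV− (2.15%). The difference was positive for 24 of the 32 (51.8% of the 8841), with a median of 0.18 in log2(CPM + 1) against 0.0047. The EV− libraries were above all EV+ libraries for 7 of the 32 (4.38%). An EV− mean at least 2 times the EV+ mean was found for 12 of the 32 (1.35%), all of them among the 21 with a mean under 10 CPM in control and GN (4.75% of the 2486 genes at that level). Of the 11 listed genes at or above 10 CPM, 0 had such a ratio, against 0.0157% of the 6355 genes at that level, so nothing particular to the listed genes is read from it.

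*Ccl5*, a chemokine released by activated T cells and NK cells, had the widest gap of the effectors in log2(CPM + 1), whereas *Gzmk* had a wider one by ratio of means (11.5 against 11.1). *Ccl5* was at 3.33 to 5.78 CPM in EV+ and at 126, 14.8 and 9.07 CPM in EV−, and its difference of 2.33 in log2(CPM + 1) had an SE of 0.640 (limma adjusted p = 0.733). *Gzmm*, which encodes granzyme M, was at 4.37 to 5.94 CPM in EV+ and 115, 15.9 and 9.92 CPM in EV−. *Tbx21* encodes T-bet, a transcription factor of NK cells and type 1 T cells. It was at 0.312 to 1.33 CPM in EV+ and 18.8, 3.87 and 1.95 CPM in EV− (difference 1.96, SE 0.509, limma adjusted p = 0.633). These genes thus had the same order of EV− libraries as the granule effectors, with replicate 1 far above the rest.

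The values of the most abundant listed genes were close in the EV groups, as those of nearly all abundant genes were. *Klrk1*, which encodes the activating receptor NKG2D, was at 86.5 to 146 CPM in EV+ and 83.7 to 136 CPM in EV−. *Cd244*, a receptor of the SLAM family, was at 315 to 349 CPM and 335 to 349 CPM. *Cd8a* and *Cd8b* encode the coreceptor of cytotoxic T cells, and CD8 is also known from rat macrophages. *Cd8a* was at 254 to 330 CPM in EV+ and 261 to 333 CPM in EV−, and *Cd8b* at 69.3 to 78.0 CPM and 68.2 to 72.8 CPM. *Fyn*, a kinase of the same family as LCK that many cell types use, was at 290 to 308 CPM and 315 to 331 CPM. Of the 11 genes, *Fyn* was the only 1 with all EV− libraries above all EV+ libraries, with a ratio of means of 1.08 (limma adjusted p = 0.9997). *Klra17*, a receptor gene of the Ly49 family, had the reverse order, with 294 to 303 CPM in EV+ and 259 to 281 CPM in EV− (limma adjusted p = 0.9997). Its high level in these macrophage libraries is not read as a sign of NK cells.

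**Figure D4:**
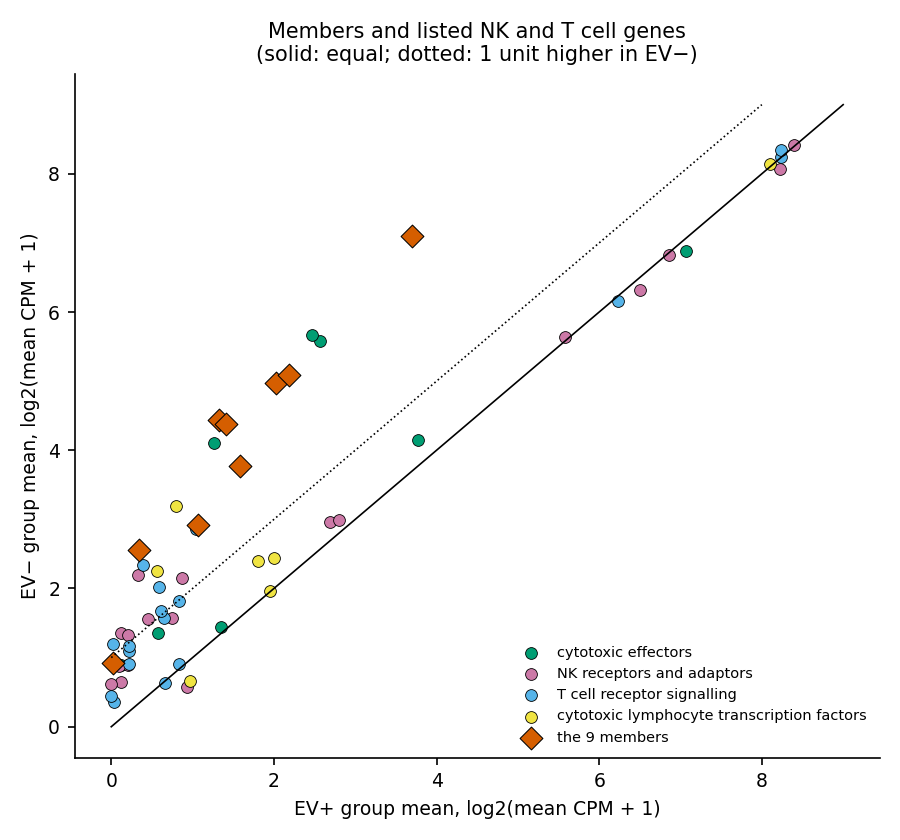
Group mean of EV− against group mean of EV+, both as log2(mean CPM + 1), for the 50 listed NK and T cell genes (circles, coloured by list) and the 9 cytotoxic transcripts (diamonds), with a solid line where both are equal and a dotted line 1 unit above it. Many of the low genes lie above the line, and the genes at the upper right, such as *Cd244*, *Cd8a* and *Fyn*, lie on or near it.

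Between GN and control, 1 of the 50 listed genes passed limma's test at FDR under 0.1. *Cst7* encodes cystatin F, an inhibitor of granule proteases that myeloid cells make as well. It rose from 67.7 and 52.5 CPM in control to 129 and 145 CPM in GN (difference 1.19 in log2(CPM + 1), SE 0.163, adjusted p = 0.00304). Its level was also 111 to 145 CPM in EV+ and 97.1 to 132 CPM in EV−, and those 2 groups overlapped. *Klrk1* was at 192 and 157 CPM in control libraries, against 110 and 78.2 CPM in GN, and did not pass (difference −0.90, SE 0.238, limma adjusted p = 0.112). *Klrk1* passed in the fit of the 2 groups alone (limma adjusted p = 0.0381), under a block for replicate (limma adjusted p = 0.00144) and by edgeR's likelihood-ratio test (adjusted p = 0.0244). It did not pass by edgeR's quasi-likelihood test or by DESeq2. The block uses replicate numbers, which were not taken as pairs between GN and control. *Cd8a*, at 199 and 201 CPM in control libraries, against 268 and 265 CPM in GN, did not pass either (difference 0.41, SE 0.125, limma adjusted p = 0.18). *Cd8a* passed in the fit of the 2 groups alone (limma adjusted p = 0.0379), under the block (limma adjusted p = 0.0768), by the likelihood-ratio test (edgeR adjusted p = 0.0948) and by DESeq2 (adjusted p = 0.0698). It did not pass by the quasi-likelihood test. *Klra17*, lower in GN (limma adjusted p = 0.116), passed by the likelihood-ratio test (edgeR adjusted p = 0.0891) and DESeq2 (adjusted p = 0.0128). *Klra1*, *Ly49si1* and *Cd96*, named after their values were seen, passed by the likelihood-ratio test, by DESeq2 or by both.

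The genes whose pattern was most like that of the 9 were ranked by Pearson's r with the mean of their log2(CPM + 1), as a description across libraries that share the same high library. Over the 10 libraries the first were *Ccl5* (r = 0.997), *Gzmm* (r = 0.988), *Tbx21* (r = 0.982), *Gzmk* (r = 0.973) and *Gpr171* (r = 0.973). The 15th, *Upf3b*, had r = 0.947. The others of the 15 were *Lag3*, *Sytl1*, *Gfra3*, *Spint1*, *Faslg*, *Ncr1*, *Klrb1a*, *Slc27a2* and *Il12rb2*. These others and *Gpr171* reached 1 CPM only in EV− libraries, so they had to be high there to be in the table. Their high r was thus set in part by the filter, and nothing is read from it. Over the 9 libraries without EV− replicate 1, the first were *Ccl5* (r = 0.981), *Gzmm* (r = 0.938), *Il12rb2* (r = 0.917), *Gpr171* (r = 0.914) and *Tbx21* (r = 0.913). The rankings shared 8 of 15 genes, and 7 and 5 of the 15 were on the lists above.

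Markers of other blood cells were read beside these values. The 7 B cell markers, led by *Cd22*, *Cd79b* and *Bank1*, summed to 402 to 478 CPM in EV+ and 365 to 463 CPM in EV−, with EV− replicate 1 ranking 9th of 10 libraries. *Ms4a1*, which encodes the B cell surface protein CD20, was at 1.72 CPM or less in every library. The 7 neutrophil markers, led by *Csf3r*, summed to 701 to 720 CPM and 656 to 744 CPM. The 7 dendritic cell markers, led by *Cd1d1*, summed to 355 to 375 CPM and 336 to 371 CPM, and EV− replicate 1 was the lowest library. In none of these 3 lists was EV− replicate 1 the highest library.

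The 5 plasma cell markers, led by *Derl3*, *Sdc1* and *Pou2af1*, were low, at 3.75 to 9.53 CPM in EV+ and 4.13 to 15.1 CPM in EV−. Their highest sum was in EV− replicate 1, and 4 of the 5 were highest there. The hemoglobin genes *Hba1* and *Hbb* were the 2 platelet and erythroid markers analysed, with a sum of 3.28 to 4.80 CPM in EV+ and 3.72 to 6.30 CPM in EV−. The macrophage sum of EV− replicate 1 was 30385 CPM, 5th of the 10 libraries. The authors' clustering put granzyme B in a gene group that they left out of their later analyses. They read that group as a possible sign of contaminating NK or T cells. The part of other cell types in the cytotoxic transcripts was not tested here.

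**Figure D5:**
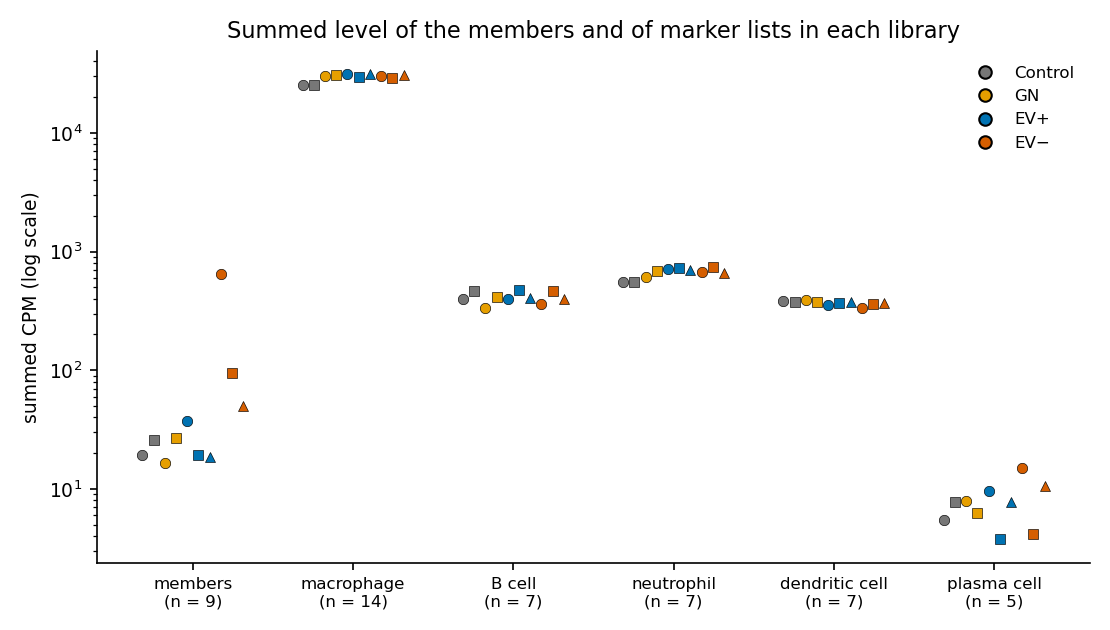
Summed CPM of the 9 cytotoxic transcripts (first column, labelled members) and of the marker lists of other cell types in each library, on a logarithmic vertical axis, with points coloured by group and shaped by replicate number. The cytotoxic sum runs from 16.5 to 653 CPM, whereas the macrophage sum stays between 25215 and 31301 CPM.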

How the data were processed

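RNA-seq was made from 10 libraries with the SMART-Seq v4 and Nextera XT kits, which do not mark strand, and sequenced in pairs. Per the labels and the methods, the authors aligned reads to rn6 with STAR (version 2.5.3), counted them on RefSeq genes with HTSeq (version 0.6.0, intersection-strict) and removed genes with a maximum CPM under 1. They then applied TMM normalization in edgeR. The deposited values are therefore a normalized signal, TMM-scaled CPM, and no gene of the 9003 in the table peaked under 1.01 CPM. Dividing each library's values by their step gave whole reads (100% of values, within 0.01 reads), and these recovered reads were used where counts were needed. Replicates differed beyond sampling noise (chi-square over degrees of freedom, 13.4 to 45.4). Of the symbols, 18 had been turned into dates and could not be named. Columns that no label matched numbered 0, and reads carry no molecular identifiers, so counting intervals and floors cover counting error only.

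The genes followed and the lists were chosen with earlier results of these data known. Groups came from the labels. Tests used limma 3.58.1 (R 4.3.3), applied to log2(CPM + 1) with the 4 groups in 1 fit, 6 residual degrees of freedom, an intensity trend and Benjamini-Hochberg FDR under 0.1 over 9003 genes. The edgeR (version 4.0.16) and DESeq2 (version 1.42.0) tests on recovered reads were alternatives, chosen beside another pseudocount (0.1), a filter of 1 CPM in 2 libraries, RLE size factors, a replicate block and leaving out each library. The fit was tested on simulated data, in which no gene of low mean level was changed and no single library was set apart. That test therefore does not cover low genes or a single high library such as EV− replicate 1. Text names, besides the 10 listed genes, the genes of each pathway list called at that FDR, the 4 with the highest mean CPM, the 3 highest of each marker list, and the 15 most like the 9 genes by Pearson's r; exceptions are marked.

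Neither labels nor methods say that replicate numbers pair the EV libraries. Deviations from the group means correlated at r = 0.203, 0.295 and 0.122 between EV+ and EV− libraries of the same number, and each library correlated best with its own number. Same-numbered differences were therefore described, and a replicate block was run as an alternative. The main limma fit, which gave the adjusted p of EV− against EV+, held no such block. Between GN and control that r was 0.0878, and the numbers were not taken as pairs. The alternative fit with the block was nevertheless run for that comparison too. Promoter sequences came from RefSeq (GRCr8), a build other than that of the alignment, and no coordinates of rn6 are given.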

Additional observations from a re-analysis of the deposited data

How the results depend on the processing

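EV− minus EV+ was positive for each of the 9 genes under every alternative run, and between GN and control 0 of the 9 were called under any. The median of EV− minus EV+, 2.07 in log2(CPM + 1), was 1.16 to 2.81 when 1 library was left out (1.16 without EV− replicate 1), 2.66 with a pseudocount of 0.1 and 1.71 from same-numbered differences (replicate block). Leaving out 1 library gave 1.20 to 2.95 for EV− minus GN and 0.019 to 0.27 for EV+ minus GN. Of the 50 listed genes, 1 was called between GN and control; this was 3 with only the 2 groups compared, 3 with the replicate block, 6 by the likelihood-ratio test, 5 by DESeq2 and 1 whichever library was left out. Between EV− and EV+ the count of 0 became 6 by the likelihood-ratio test, 6 by DESeq2, and 0 to 1 without 1 library (*Gzmk*, without EV− replicate 3). Over all genes, the 158 calls between GN and control were 60 without the trend, 97 at FDR under 0.05, 205 with the block, 292 by the likelihood-ratio test, 294 by DESeq2 and 34 to 87 without 1 library. The 2 calls between EV− and EV+ were 4 with a pseudocount of 0.1, 0 without the trend, 5 with the replicate block, 57 by the likelihood-ratio test (39 higher in EV−), 34 by DESeq2 (19 higher in EV−) and 0 to 5 without 1 library. The block changed no call of the 9 genes. The cause of these changes was not tested, beyond the fewer samples of each left-out fit. Low reads bear on *Cd3e* and *Zap70*, whose differences were 2.67 and 3.81 with a pseudocount of 0.1 against 0.78 and 1.99.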
